A study of Mus musculus with 25 samples.

Results

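The genes described here are 10 members of the colony-stimulating factor 1 (CSF1) and platelet-derived growth factor (PDGF) systems, measured by bulk RNA-seq in macrophages and fibroblasts sorted from mouse lung and skin. They were taken as the rows whose Ensembl identifier maps to Csf1, Il34, Csf1r, Csf2ra, Csf2rb, Pdgfa, Pdgfb, Pdgfc, Pdgfra or Pdgfrb. All 10 had a row in the skin table, among 12661 genes. Of the 10, 8 had a row in lung, among 11867 genes, and Il34 and Pdgfc were not analysed there. The tables together hold 14405 genes.

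In the depleted mice (NP, Mrp8_CRE; Rosa26_DTR) Cre under the Mrp8 promoter acts on a Rosa26 diphtheria toxin receptor allele. Mrp8 is another name of S100a8, a gene most active in neutrophils. Controls (WT, Mrp8_WT; Rosa26_DTR) carry the receptor allele without Cre. Every mouse was C57BL/6 and was given diphtheria toxin intraperitoneally at 10 µg per kg for 7 days, controls included. The gate for lung interstitial macrophages was CD45+ CD68+ F4/80+ CD11c- CD11b high, and that for skin macrophages CD45+ CD11b+ CD68+ F4/80+. Fibroblasts were gated as CD45- CD31- EPCAM- PDGFRA+, and in skin also as CD90.1+. Lung gave 4 groups of 3 libraries. From skin came 7 macrophage libraries, 4 of them from depleted mice, and 6 fibroblast libraries, 3 of them from depleted mice. The labels do not say that replicates are separate animals, so p-values measure the spread between these libraries, which may be technical.

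CSF1 and interleukin 34 are the ligands of the receptor tyrosine kinase CSF1R, on which most tissue macrophages depend for survival and renewal. Csf2ra and Csf2rb encode the alpha chain and the shared beta chain of the receptor for GM-CSF. In lung this cytokine shapes alveolar macrophages in particular, while the lung gate here was for interstitial macrophages. PDGF chains pair into dimers that act through PDGFRA and PDGFRB, the receptor kinases that drive growth and migration of fibroblasts and of the mural cells around vessels. In many tissues fibroblasts supply CSF1 to macrophages and macrophages supply PDGF to fibroblasts, an exchange often described as a circuit of 2 cell types.

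Values are the authors' normalised signal, which in each library equals the estimated reads plus 0.5, times a constant. A single read was worth 2.997 to 6.81 units in lung, where libraries held 124075 to 385925 estimated reads. It was worth 0.0371 to 0.162 units in skin, where they held 6553115 to 27259903. Low values in lung thus rest on few reads. In these bulk samples, fewer cells of a type and less RNA per cell cannot be told apart.

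The markers fixed for the cell types were read first. A list of 16 macrophage genes took 2.68 to 4.82% of estimated reads in lung macrophages and 0.0307 to 0.0915% in lung fibroblasts. In skin it took 3.21 to 4.33% in 5 macrophage libraries and 0.00358 to 0.00914% in fibroblasts. The libraries labelled control macrophages 1 and control macrophages 5 of skin went against that label, since the list took 0.00500 to 0.00582% there, and 16 fibroblast genes took 9.48 to 11.9%, beside 0.0351 to 0.208% in the other skin macrophages. The title of the latter contains MFIBRO. Both were kept apart, which leaves control macrophages 3 as the single skin control macrophage library and 23 of 25 libraries in the tests. The neutrophil list, 9 of 12 genes measured, took 0.754 to 1.64% of reads in control and 0.145 to 0.186% in depleted lung macrophages. None of the 9 was at 0 in all libraries of either group. Itgax, which encodes the CD11c that the lung gate excludes, stood at 50.5 to 99.7 in lung macrophages. Pecam1, which encodes the excluded CD31, stood at 145 to 266 in lung fibroblasts.

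Promoter sequence is shown for the ligand gene Csf1, higher in fibroblasts, and for the receptor gene Csf2ra, higher in macrophages, because they are members with opposite cell types. Each run holds the 250 bases before the transcript start in RefSeq (GRCm38.p6), 5′ to 3′ on the gene's strand, and both genes lie on the minus strand. Capitals mark matches on either strand to the GC box GGGCGG, bound by Sp1-type factors, or to GAGGAA, a core of sites for the myeloid factor PU.1.
Csf1, chr3:107760470-107760719: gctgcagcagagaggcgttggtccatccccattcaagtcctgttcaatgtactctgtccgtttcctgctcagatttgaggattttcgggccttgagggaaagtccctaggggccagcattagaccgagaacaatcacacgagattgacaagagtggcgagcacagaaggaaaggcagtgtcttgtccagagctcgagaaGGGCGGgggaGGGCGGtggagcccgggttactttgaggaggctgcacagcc
Csf2ra, chr19:61228419-61228668: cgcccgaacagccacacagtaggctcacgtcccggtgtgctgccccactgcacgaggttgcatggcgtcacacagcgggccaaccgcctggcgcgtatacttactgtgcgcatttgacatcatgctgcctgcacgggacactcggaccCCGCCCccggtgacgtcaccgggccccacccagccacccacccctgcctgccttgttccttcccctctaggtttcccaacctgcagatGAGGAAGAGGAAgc
Csf1 had 2 GC boxes, which begin at -51 and -41 from the start, and no GAGGAA. Csf2ra had 1 GC box at -102 and 2 adjoining GAGGAA matches at -14 and -8. In GENCODE the gene reaches to 61228429, inside this window, so both GAGGAA matches extend into the annotated gene. A GC box was found in 32.7% and GAGGAA in 23.3% of 32817 promoter windows of this length. TATAAA, found in 12.4% of them, and the AP-1 motif TGANTCA, found in 6.75%, were in neither window. GC content was 56.4% for Csf1 and 64.8% for Csf2ra, against a median of 52.4%. Among members whose sequence is not shown, Pdgfa had GAGGAA at -27 before 1 transcript start and none before another. Pdgfa was not higher in either cell type by the test below. Pdgfc and Pdgfra had no GAGGAA. Windows were held for 5 members, and Csf1r, Csf2rb and Pdgfb were not among them. Csf2ra is thus the only member called higher in macrophages whose window was searched.

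The first comparison asks which cell type of an organ holds the ligand and which the receptor. Csf1 and Pdgfrb were higher in fibroblasts of both organs. Csf1r, Csf2ra and Csf2rb were higher in macrophages of both. Il34 was higher in skin fibroblasts, Pdgfb was higher in lung macrophages, and Pdgfa and Pdgfc were not called. In lung 7 of 8 members passed an adjusted p of 0.05 in limma, 4 higher in macrophages, as were 18.5% of all genes tested, and 3 higher in fibroblasts, as were 18%. The fibroblast counts include Pdgfra, which the sort itself selected. The ranges of the cell types did not overlap for 5 members, against 19.5% of all genes. In skin 7 of 10 members passed, 3 higher in macrophages, against 14.3% of all genes, and 4 higher in fibroblasts, against 16.4%. The ranges did not overlap for 7 of 10, against 22.5% of all genes. Log2 fold changes below are macrophages minus fibroblasts, over 6 and 6 libraries in lung and over 5 and 6 in skin, with genotype in the model. They rest on log2 of the signal plus a pseudocount of 1.04 in lung and 1.001 in skin, which understates changes of low genes.

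**Figure D1:**
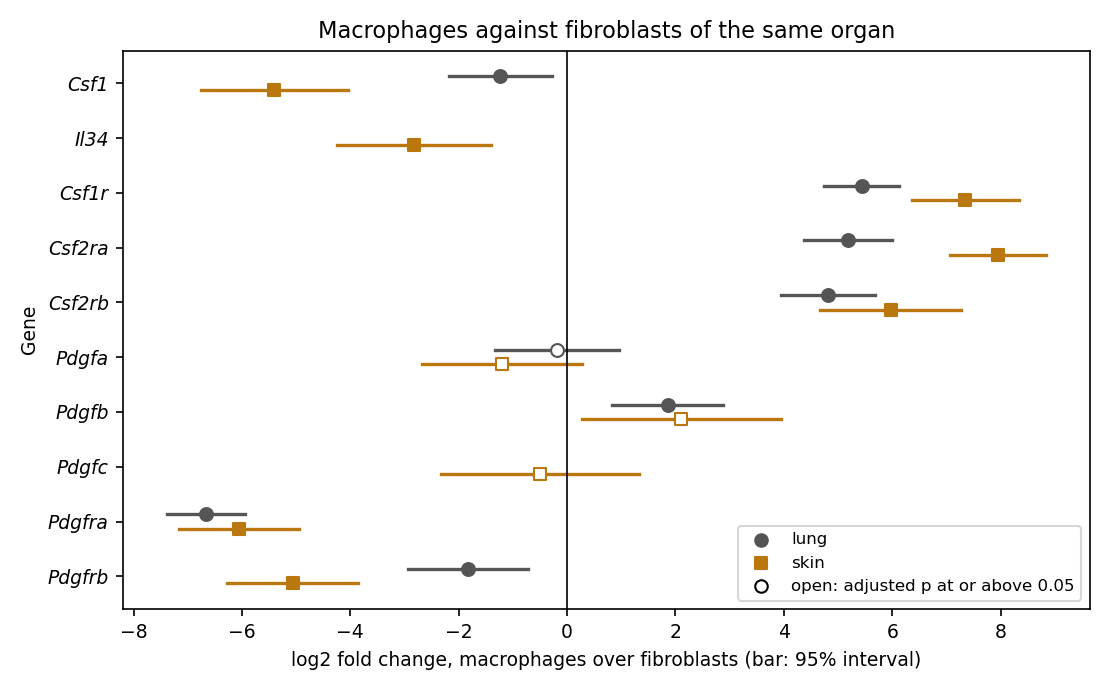
Log2 fold change of macrophages over fibroblasts (x axis) for each gene (y axis) in lung (circles) and skin (squares), with 95% intervals as bars and filled symbols for an adjusted p below 0.05. The receptor genes Csf1r, Csf2ra and Csf2rb lie between 4.82 and 7.95 on the macrophage side, and Csf1 lies at -1.23 in lung and -5.40 in skin.

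Csf1 (ENSMUSG00000014599, GRCm38 chromosome 3, 107741048 to 107760469) encodes the main CSF1R ligand. In skin fibroblasts its signal was 221, 145 and 140 in controls 3, 4 and 5, and 138, 162 and 130 in depleted libraries 2, 4 and 5. In skin macrophages it was 3.51 in control 3, and 11.9, 0.0937, 0.107 and 5.64 in depleted libraries 1, 2, 3 and 5. Every fibroblast library was above every macrophage library, by 5.40 ± 0.63 on the log2 scale (SE, limma adjusted p = 1.38e-05). In lung fibroblasts Csf1 was 19.1, 14.4 and 35.7 in controls 1 to 3 and 17.0, 13.6 and 12.1 in depleted libraries 1 to 3. In lung macrophages it was 11.3, 10.5 and 8.91 in controls and 9.23, 3.10 and 2.94 in depleted libraries, the last 2 of which hold 0 reads. The signals of the lung groups did not overlap either, but their reads did. Control macrophages 2 held 3 reads, while control fibroblasts 2 and depleted fibroblasts 1 held 2 each. The order of these libraries thus comes only from their scaling. The log2 fold change was -1.23 ± 0.47 (SE, limma adjusted p = 0.0389). It rests on 22.5 and 7 estimated reads, a ratio of read rates of 2.94 (exact 95% interval 1.25 to 8.29, counting error only). The lung call was lost without control macrophages 2 (-1.26) or 3 (-1.22), depleted macrophages 2 (-1.11) or 3 (-1.10), control fibroblasts 3 (-1.10), or depleted fibroblasts 1 (-1.15), 2 (-1.21) or 3 (-1.25). It was also lost in control mice alone (-1.01, adjusted p = 0.290) and in depleted mice alone (-1.45, adjusted p = 0.137).

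Il34 (ENSMUSG00000031750, chromosome 8, 110741829 to 110805924) encodes the second CSF1R ligand, known in skin for the upkeep of Langerhans cells, and keratinocytes are its best known source there. Its signal in skin fibroblasts was 9.39, 15.0 and 36.9 in controls 3, 4 and 5, and 32.6, 35.1 and 41.6 in depleted libraries 2, 4 and 5. In skin macrophages it was 5.02 in control 3, and 0.0809, 7.28, 2.95 and 3.998 in depleted libraries 1, 2, 3 and 5, the first of which holds 0 reads. The cell types did not overlap, and the log2 fold change was -2.82 ± 0.66 (SE, limma adjusted p = 0.00471). In control mice alone it was -1.62 and was not called (adjusted p = 0.482). The 12 keratinocyte genes took 0.140 to 1.72% of reads in fibroblasts and 0.147 to 0.631% in macrophages, and their part in the Il34 signal was not tested. Per kilobase of exon, Csf1 was above Il34 in 6 of 6 skin fibroblast libraries, with a ratio of 1.16 to 8.72 (median 1.64).

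Csf1r (ENSMUSG00000024621, chromosome 18, 61100598 to 61132149), the receptor of both ligands, was abundant in macrophages. In lung macrophages its signal was 412, 440 and 312 in controls and 378, 245 and 415 in depleted libraries 1 to 3. In lung fibroblasts it was 8.19, 14.4 and 12.5 in controls and 3.40, 1.94 and 12.1 in depleted libraries, 9 reads in all. The lowest macrophage library was thus above the highest fibroblast library, with a 43.3-fold difference (log2 5.44 ± 0.34, SE, limma adjusted p = 4.48e-15). In skin macrophages it was 653 in control 3, and 662, 614, 683 and 809 in depleted libraries 1, 2, 3 and 5. Skin fibroblasts held 1.05 to 12.4, and the log2 fold change was 7.35 ± 0.46 (SE, limma adjusted p = 3.17e-08). In control mice of skin alone, where 1 macrophage library remains, it was 6.58 and was not called (adjusted p = 0.0527).

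The GM-CSF receptor chains had the same direction. Csf2ra (ENSMUSG00000059326, chromosome 19, 61223957 to 61228429), the ligand-specific alpha chain, stood at 135, 172 and 163 in control and 231, 118 and 185 in depleted lung macrophages. The 6 lung fibroblast libraries held 2 reads in all, and the ratio of read rates was 109 (exact 95% interval 29.9 to 909). In skin macrophages it was 269 in control 3, and 408, 485, 439 and 714 in depleted libraries 1, 2, 3 and 5, while skin fibroblasts held 0.0869 to 1.67. Its skin log2 fold change of 7.95 ± 0.41 was the largest among the 10 members in that organ (SE, limma adjusted p = 5.88e-09). Csf2rb (ENSMUSG00000071713, chromosome 15, 78325752 to 78353847), the beta chain shared with the receptors for interleukins 3 and 5, stood at 182, 198 and 170 in control and 167, 133 and 132 in depleted lung macrophages. Lung fibroblasts held 1.73 to 17.0, or 4 reads in all. In skin macrophages Csf2rb was 88.0 in control 3 and 99.9 to 148 in the 4 depleted libraries, and in skin fibroblasts 0.0220 to 7.24. Its log2 fold changes were 4.82 ± 0.43 in lung and 5.97 ± 0.61 in skin (SE, limma adjusted p = 2.85e-11 and 3.64e-06). Csf2rb2 is a near-identical neighbour, so the split of reads between both genes is uncertain.

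**Figure D2:**
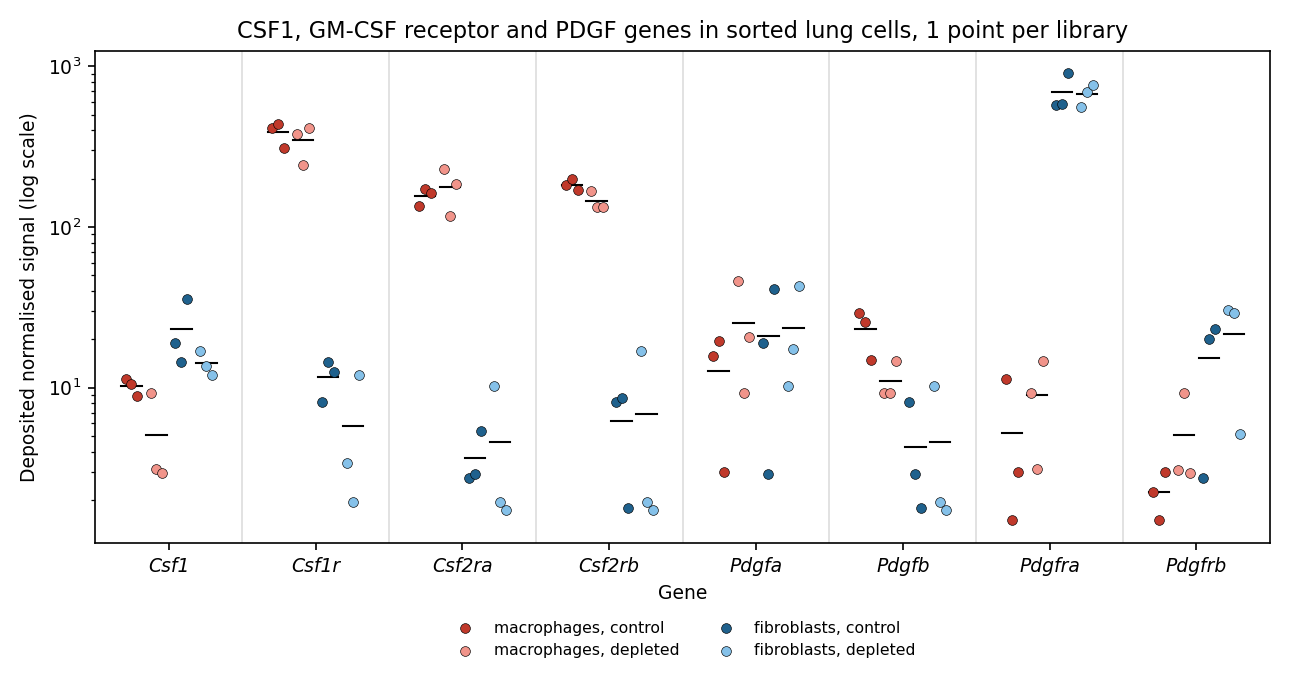
Normalised signal (log axis) of the 8 genes measured in lung, 1 point per library, with group means as bars, for control and depleted macrophages (red) and fibroblasts (blue), 3 libraries each. Csf1r, Csf2ra and Csf2rb of macrophages and Pdgfra of fibroblasts lie above 100, while all other points lie below 50, where few reads stand behind a value.

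The PDGF chains were low in both cell types. Pdgfb (ENSMUSG00000000489, chromosome 15, 79995874 to 80014977) encodes the B chain, which acts on both receptors. In lung macrophages it was 29.4, 25.5 and 14.8 in controls and 9.23, 9.31 and 14.7 in depleted libraries, 20 reads in all. In lung fibroblasts it was 8.19, 2.89 and 1.78 in controls and 10.2, 1.94 and 1.73 in depleted libraries, 2 reads in all. The ranges overlapped, since the highest fibroblast library was above the lowest macrophage libraries. The log2 fold change was 1.86 ± 0.51 (SE, limma adjusted p = 0.00375), and the ratio of read rates 10.9 (exact 95% interval 2.66 to 96.5). In depleted mice alone it was 1.38 and was not called (adjusted p = 0.173). Endothelial cells and platelets are known sources of this chain. The endothelial list, 8 of 10 genes measured, took 0.0112 to 0.0352% of reads in lung macrophages and 0.0226 to 0.0331% in lung fibroblasts. Pecam1 made up most of that sum. Of the 8 genes, 7 had a higher fitted level in lung macrophages, with a median log2 fold change of 0.98. The test called 1 of the 8 and did not call the other 7. Cdh5, chosen after its values were seen, was 2.97 to 38.4 in control and 2.94 to 15.4 in depleted lung macrophages and 1.73 to 17.0 in lung fibroblasts. Platelet genes, 2 of 8 measured, took 0.0427 to 0.100% in lung macrophages and at most 0.00254% in lung fibroblasts. In macrophages it was nearly all Pf4, and Ppbp was 2.26 to 28.5 in lung macrophages and 1.78 to 19.1 in lung fibroblasts. The part of both cell types in the Pdgfb difference was not tested.

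In skin macrophages Pdgfb was 15.7 in control 3, and 0.0809, 7.28, 18.0 and 6.32 in depleted libraries 1, 2, 3 and 5. Skin fibroblasts held 6.00, 0.374 and 0.0284 in controls and 0.0354, 0.0869 and 3.98 in depleted libraries. Depleted macrophages 1, with 0 reads, lay among the fibroblasts. That library had the fewest estimated reads of all skin libraries and the largest share of genes at 0, 22.2%. The log2 fold change was 2.11 ± 0.85, with a 95% interval of 0.27 to 3.94, and was not called (SE, limma adjusted p = 0.0793). It was called without depleted macrophages 1 (2.69), control fibroblasts 3 (2.31) or depleted fibroblasts 5 (2.64). Platelet genes, 3 of 8 measured, took 0.0637 to 0.241% of reads in skin macrophages and at most 0.00580% in skin fibroblasts. Of the 3, 2 were called higher and 1 lower in skin macrophages. Pf4 carried the sum, at 2731 in control macrophages 3 and 684 to 1371 in the depleted libraries, where Ppbp was 4.24 and 10.1 to 18.7. Their part was not tested.

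Pdgfa (ENSMUSG00000025856, chromosome 5, 138976014 to 138997370), the A chain that acts through PDGFRA, was measured in both cell types of both organs. In lung macrophages it was 15.8, 19.5 and 2.97 in controls and 46.1, 9.31 and 20.6 in depleted libraries. In lung fibroblasts it was 19.1, 2.89 and 41.0 in controls and 10.3, 17.5 and 43.1 in depleted libraries. The groups overlapped almost wholly, with a log2 difference of -0.18 and a 95% interval of -1.32 to 0.97 (limma adjusted p = 0.834). In skin it was 10.2 to 26.0 in fibroblasts, and 14.3, 0.0809, 5.47, 14.2 and 5.13 in control macrophages 3 and depleted macrophages 1, 2, 3 and 5. The shallow library, depleted macrophages 1, held 0 reads of Pdgfa as well. The skin difference was -1.20, with an interval of -2.68 to 0.28 (limma adjusted p = 0.214). Pdgfc (ENSMUSG00000028019, chromosome 3, 81036416 to 81214040), a chain that needs proteolytic activation, was 0.915, 61.1 and 19.5 in control and 23.5, 5.01 and 51.3 in depleted skin fibroblasts. In skin macrophages it was 6.16 in control 3 and 19.8, 9.59, 18.0 and 13.5 in depleted libraries, all inside the fibroblast range. Its difference was -0.51, with an interval of -2.33 to 1.32 (limma adjusted p = 0.701).

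In lung, reads of the PDGF chains were too few for a ratio in each library. The 6 lung fibroblast libraries held 31.0 reads of Pdgfa and 2 of Pdgfb, and the 6 lung macrophage libraries 20 of each. In skin fibroblasts the A chain was 4.46, 5.78 and 52.6 times the B chain per kilobase of exon in depleted library 5 and controls 3 and 4, and the other 3 libraries held 0 or 1 read of Pdgfb. In the 4 skin macrophage libraries with reads of both, the ratio was 1.002 to 1.22.

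Pdgfra (ENSMUSG00000029231, chromosome 5, 75152292 to 75198215) encodes the alpha receptor used to gate the fibroblasts, so its difference between cell types is a check of the sort and not a result. It was 555 to 908 in lung fibroblasts and 1.50 to 14.7 in lung macrophages. In skin it was 205 to 457 in fibroblasts and 0.406 to 14.5 in macrophages, with control macrophages 3 highest. Pdgfrb (ENSMUSG00000024620, chromosome 18, 61045150 to 61085061), the beta receptor, was not part of the gate. In skin fibroblasts it was 212, 81.8 and 108 in controls 3, 4 and 5 and 124, 110 and 84.4 in depleted libraries 2, 4 and 5. In skin macrophages it was 9.16 in control 3 and 0.404, 4.97, 0.746 and 0.171 in depleted libraries 1, 2, 3 and 5. The groups were apart by 5.06 ± 0.56 on the log2 scale (SE, limma adjusted p = 8.94e-06). In lung fibroblasts Pdgfrb was 2.73, 20.2 and 23.2 in controls and 30.6, 29.1 and 5.18 in depleted libraries, 21 reads in all. In lung macrophages it was 2.26, 1.50 and 2.97 in controls and 3.08, 9.31 and 2.94 in depleted libraries, with 1 read in all, in depleted macrophages 2. That library lay above control fibroblasts 1 and depleted fibroblasts 3, so the ranges overlapped. The log2 fold change was -1.83 ± 0.54 (SE, limma adjusted p = 0.00740). The ratio of read rates was 19.2 (exact 95% interval 3.09 to 794). The call was lost in control mice alone (-1.96, adjusted p = 0.0675) and in depleted mice alone (-1.71, adjusted p = 0.126). Mural genes, 4 of 10 measured in lung and 7 in skin, took 0.00594 to 0.0113% of reads in lung fibroblasts and 0.0123 to 0.0324% in skin fibroblasts. They took 0.000958 to 0.00422% and 0.000760 to 0.00377% in macrophages, and their part in the Pdgfrb difference was not tested.

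Pdgfra was above Pdgfrb per kilobase by 9.90 to 21.4 times in 4 lung fibroblast libraries, and control fibroblasts 1 and depleted fibroblasts 3, with 0 and 1 read of Pdgfrb, give no usable ratio. In skin fibroblasts it was above by 1.02 to 2.38 times (median 1.72, 6 libraries). The organs' tables were normalised separately and Pdgfra is a gate gene, so these ratios are given side by side with no test.

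Within each cell type, members can be ordered by mean signal per kilobase of exon. In lung macrophages Csf1r (63.6) and Csf2ra (58.3) overlapped in range and stood above Csf2rb (22.5), which did not overlap Csf2ra. Pdgfa (6.11) and Pdgfb (4.12) overlapped each other, and Csf1 (1.45), Pdgfra (0.712) and Pdgfrb (0.671) were lowest. In skin macrophages Csf2ra (161) and Csf1r (119) overlapped, Csf2rb (16.1) stood apart below them, and the other 7 lay between 0.510 and 2.64 with overlapping neighbours. In lung fibroblasts Pdgfra (67.7) stood apart from the rest, of which Pdgfa (7.15), Csf1 (3.53) and Pdgfrb (3.38) were the highest and overlapped. In skin fibroblasts Pdgfra (34.2), Csf1 (29.6), Pdgfrb (21.9) and Il34 (14.5) led, each overlapping the next, followed by Pdgfa (5.39) and Pdgfc (5.28). The remaining 4, from Csf1r (0.876) to Csf2rb (0.180), were lowest there.

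With the 2 libraries kept apart restored as labelled, 6 of 10 members were called between the skin cell types. The log2 fold changes were -3.89 for Csf1, 5.54 for Csf1r, 5.31 for Csf2ra, 4.31 for Csf2rb and -3.56 for Pdgfrb, all still called (limma adjusted p between 0.0145 and 0.0159). Il34 was then -1.85 and not called (adjusted p = 0.102). In those libraries themselves, labelled control macrophages 1 and 5, Csf1 was 68.7 and 203, Csf1r 12.2 and 21.1, and Csf2ra 0.0929 and 0.255. Of the 10 members, 7 and 8 were inside the range of the skin fibroblasts, and 1 and 2 inside that of the other skin macrophages.

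Other genes of both systems were read from lists that hold no member. Of 16 measured genes of the CSF1 and GM-CSF list in lung, 10 were higher in macrophages and 0 lower, with a median log2 fold change of 2.16 beside -0.09 over all genes. Among those with the lowest p were Tyrobp (6.35 ± 0.23, SE), an adaptor of myeloid receptors, Spi1 (5.84 ± 0.39), which encodes PU.1, and Csf3r (3.80 ± 0.52), the receptor of granulocyte colony-stimulating factor. In skin 8 of 18 were higher and 1 lower, with a median of 0.89 beside -0.11 over all genes. Tyrobp (9.28), Spi1 (8.05), the phosphatase gene Inpp5d (6.52) and Csf2rb2 (3.71) led there. Of 18 measured genes of the PDGF list in lung, 1 was higher in macrophages and 8 were lower, with a median of -0.75. Sparc (-4.95 ± 0.20), a matrix protein that binds PDGF, Lrp1 (-2.01 ± 0.23), a co-receptor of PDGFRB, and Spry1 (-3.24 ± 0.42), a feedback inhibitor of receptor kinases, were lowest by p. Spry4, of the same inhibitor family, had a mean of 44.4 in lung fibroblasts and no read in the 6 lung macrophage libraries. In skin 3 of 19 were higher and 11 lower, with a median of -1.32. Sparc (-5.44), Pdgfrl (-5.37), a PDGF-receptor-like gene, and Plat (-6.20), tissue plasminogen activator, which cleaves PDGF chains of the C type, were lower. Dusp6 (2.80), a phosphatase of ERK, was higher in macrophages. In control mice of skin alone Csf2rb2 (3.98), Plat (-5.55) and Dusp6 (3.09) were not called, nor was Dusp6 (1.69) with all libraries as labelled.

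The genes whose pattern over the libraries was most like each member were found by the root mean square difference of centred log2 values, over 12 libraries in lung and 11 in skin. Itgb2, an integrin chain of leukocytes, was nearest to Csf1r in lung (0.49) and second to Csf2ra in skin (0.38). Csf2rb was nearest to Fpr2, a formyl peptide receptor, in lung (0.43) and to Gpr183, an oxysterol receptor, in skin (0.40). In skin Csf1 was nearest to Entpd2 (0.76) and Penk (0.83), Csf1r to Plek (0.50), Il34 to Otud7b (0.46), Pdgfra to Col6a2 (0.29) and Pdgfrb to Mgp (0.41), the matrix Gla protein gene. In lung Pdgfra was nearest to Plac9b (0.39). For the low lung genes Csf1, Pdgfa, Pdgfb and Pdgfrb the distances of 0.41, 0.54, 0.41 and 0.51 are set against spreads of the member itself of 0.85, 1.14, 1.18 and 1.32.

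The second comparison asks whether these levels differ when neutrophils are depleted. None of the 10 members passed the adjusted test in any cell type, in limma or with voom. In lung macrophages 0.497% of all genes passed and in lung fibroblasts 0.00843%, while in skin macrophages and in skin fibroblasts the share was 0. At an unadjusted p under 0.05, 1 member was found, Csf2ra in skin macrophages, beside 945 of all genes in lung macrophages, 598 in lung fibroblasts, 840 in skin macrophages and 282 in skin fibroblasts. The counts in lung macrophages, lung fibroblasts and skin fibroblasts are 7.96, 5.04 and 2.39% of the genes tested there. In skin macrophages 12028 genes were tested, against a single control library. Log2 fold changes below are depleted minus control. Macrophage and fibroblast contrasts use different libraries.

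**Figure D3:**
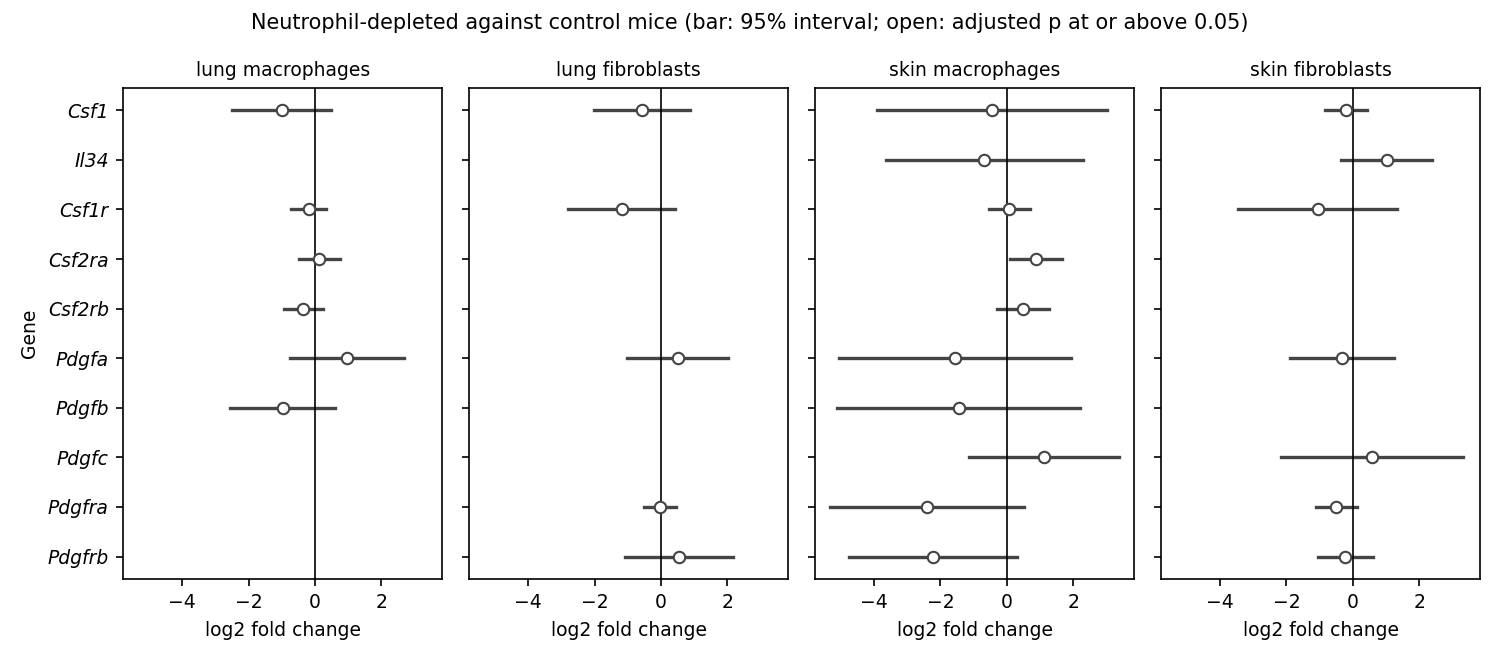
Log2 fold change of depleted over control mice (x axis) for each gene (y axis) in the 4 cell populations, with 95% intervals as bars; all symbols are open, as no adjusted p was below 0.05. Genes with 3 or fewer estimated reads in both groups, or without a row or below the filter, are not drawn, and the interval of Csf2ra in skin macrophages, 0.11 to 1.67, is the one that lies wholly on 1 side of 0.

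In lung macrophages, the receptor genes had small fitted differences. Csf1r had a log2 fold change of -0.19, with a 95% interval of -0.72 to 0.35, and Csf2ra one of 0.13, with an interval of -0.48 to 0.75 (limma adjusted p = 0.894 and 0.945). Csf2rb was 170 to 198 in controls and 132 to 167 in depleted libraries. Every control library was above every depleted library, but the difference of -0.35, with an interval of -0.94 to 0.24, did not pass (limma adjusted p = 0.840). Pdgfb also did not overlap, with 14.8 to 29.4 in controls and 9.23 to 14.7 in depleted libraries, on 16 and 4 reads. The nearest libraries, control macrophages 3 and depleted macrophages 3, hold 2 reads each, so their order comes only from the scaling of the libraries. Its ratio of read rates, control over depleted, was 2.73 (exact 95% interval 0.880 to 11.2), and its log2 fold change -0.97 ± 0.79 (SE, limma adjusted p = 0.835). That makes 2 of 8 members without overlap, beside 12.2% of all genes. Csf1 rested on 6 reads in controls and 1 in depleted libraries, a ratio of 4.09 (exact 95% interval 0.497 to 188), and Pdgfa on 9 and 11. Pdgfra and Pdgfrb had 3 reads or fewer per group, so no fold is given. Neutrophils also express Csf2rb, and the share of the neutrophil list was lower in every depleted library, as given above. The 12 lung epithelial genes took 0.204 to 0.886% of reads in controls and 0.938 to 2.14% in depleted libraries, and platelet genes 0.0427 to 0.0631% and 0.0632 to 0.100%. Of the 2 platelet genes, Pf4 had a mean of 613 in controls and 961 in depleted libraries, and Ppbp one of 15.2 and 10.98. The 9 alveolar macrophage genes took 0.554 to 0.837% and 0.560 to 1.02%. The part of these cells in the values was not tested.

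Among the other genes of both lists in lung macrophages, 1 was called. Csf3r, which neutrophils express strongly, was 173 to 237 in controls and 25.2 to 80.0 in depleted libraries, a log2 fold change of -2.24 ± 0.38 (SE, limma adjusted p = 3.60e-04). It moved with the neutrophil list, whose part was not tested. The call was lost without control macrophages 2 (-2.33, adjusted p = 0.173) or 3 (-2.10, adjusted p = 0.229). Jak2, a kinase below the GM-CSF receptor, was 2.26 to 4.49 in controls and 20.6 to 27.7 in depleted libraries (2.49 ± 0.81, SE, limma adjusted p = 0.273), and was called with voom (2.94, adjusted p = 0.0466). A single lung read was worth 2.997 to 6.81 units, so the Jak2 values of both groups rest on few reads. The phosphatase gene Ptpn2 had -1.68 and Sparc 0.60, and neither was called.

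In lung fibroblasts no member's groups were apart, beside 9.2% of all genes. Csf1 was 14.4 to 35.7 in controls and 12.1 to 17.0 in depleted libraries (log2 fold change -0.58, 95% interval -2.02 to 0.86). Pdgfra differed by -0.02, with an interval of -0.50 to 0.46, Pdgfrb by 0.55 (-1.07 to 2.17) and Pdgfa by 0.50 (-1.03 to 2.04), with a limma adjusted p of 0.987 or more for each. Csf1r rested on 6 reads in controls and 3 in depleted libraries, a ratio of 2.18 (exact 95% interval 0.465 to 13.5). Csf2ra, Csf2rb and Pdgfb had 2 reads or fewer per group. From the lists, Grb2 (1.12), Cbl (-1.27), Plcg1 (-1.78) and Ptpn1 (-1.05), all adaptors or enzymes of receptor signalling, had the lowest p, and none was called.

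In skin macrophages 4 depleted libraries were set against control macrophages 3 alone, whose spread is assumed to equal theirs. How many of all genes place that single library outside the range of the 4 was not counted. Among the members, that library lay outside the range for Csf2ra, Csf2rb, Pdgfa, Pdgfc, Pdgfra and Pdgfrb. It lay inside for Csf1, Il34, Csf1r and Pdgfb. The order of libraries given below thus has no share over all genes beside it, and nothing is read from it. Csf2ra was 269 in the control and 408 to 714 in the depleted libraries, a log2 fold change of 0.89 ± 0.34 (SE, limma adjusted p = 0.645). Each depleted library was above the control. Csf2rb was 88.0 and 99.9 to 148 (0.48, 95% interval -0.30 to 1.26), and Csf1r 653 and 614 to 809 (0.08, interval -0.53 to 0.68). The PDGF receptor genes were lower in each depleted library, Pdgfra by 2.41 and Pdgfrb by 2.24 on the log2 scale in the fit (-2.41 ± 1.28 and -2.24 ± 1.10, SE, limma adjusted p = 0.781 and 0.752). The fibroblast list took 0.208% of reads in that control library and 0.0351 to 0.134% in the depleted ones. No marker of 16 was at 0 in all libraries of a group, and the part of the list was not tested. Keratinocyte genes took 0.631% and 0.147 to 0.351%, and mast cell genes, 7 of 8 measured, 0.0349% and 0.000985 to 0.00949%. Among ligands, Csf1 had -0.45, Il34 -0.69, Pdgfa -1.56, Pdgfb -1.45 and Pdgfc 1.12, with intervals that all held 0. Spi1 (0.71), Sparc (-1.01) and Lrp1 (-0.52), among the list genes with the lowest p, were not called. With all libraries as labelled the values were 6.06 for Csf2ra, 4.17 for Csf2rb, 3.58 for Csf1r, -3.60 for Csf1 and -5.45 for Pdgfra, and none was called (limma adjusted p between 0.0871 and 0.175). There, 2 of the 3 control libraries have a fibroblast profile.

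In skin fibroblasts 7 of 10 members passed the filter on low values, and Csf2ra, Csf2rb and Pdgfb did not. Csf1 had a log2 fold change of -0.21, with an interval of -0.85 to 0.44. Il34 was 9.39 to 36.9 in controls and 32.6 to 41.6 in depleted libraries (1.02 ± 0.62, SE, limma adjusted p = 0.956), with control fibroblasts 5 among the depleted libraries. Pdgfra was 356 to 457 in controls and 205 to 346 in depleted libraries, which did not overlap (-0.49 ± 0.28, SE, limma adjusted p = 0.956), beside 8.47% of all genes without overlap. The 16 fibroblast genes took 9.20 to 11.96% of reads in controls and 6.19 to 8.73% in depleted libraries, with a median log2 fold change of -0.44 and none called, and their part was not tested. Pdgfrb (-0.23), Pdgfa (-0.34), Pdgfc (0.57) and Csf1r (-1.06) overlapped between groups, and their intervals held 0. Per kilobase, Csf1 over Il34 was 8.72, 3.59 and 1.41 in controls 3, 4 and 5 and 1.57, 1.71 and 1.16 in depleted libraries 2, 4 and 5. Control fibroblasts 5 again lay among the depleted libraries. Keratinocyte genes took 0.311 to 0.460% of reads in controls and 0.140 to 1.72% in depleted libraries, and their part was not tested. Jak2 (-1.17), Stat5b (1.40), Lrp1 (-0.72) and Nrp1 (-0.68), a co-receptor, had the lowest p in the lists, and none was called.

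Whether depletion changed macrophages and fibroblasts differently within an organ was tested with an interaction term. No member passed in either organ or with voom, and 0 members were at an unadjusted p under 0.05, beside 653 of all genes in lung and 534 in skin. Of all genes 0.0169% passed in lung and 0 in skin. Pdgfrb in skin had an interaction of -2.09 ± 1.12 and Pdgfra one of -1.97 ± 1.02 (SE, limma adjusted p = 0.964 for both), and both rest on the single control macrophage library.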

How the data were processed

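Sequenced RNA came from 25 sorted cell libraries, of which 23 were tested. Per the labels' protocols, libraries were made with the Ovation Single Cell RNA-Seq kit. CASAVA 1.8, cutadapt 1.7.1, RSEM 1.7.1, limma 3.46 and mm10 are named, with no roles, per the submitters' processing notes. The deposited values are a normalised signal per gene and library, in 1 table per organ, and how the authors scaled it is not given in the sources used here. Estimated reads were recovered from it as the signal over its step, minus 0.5, and came out whole within 0.01 for 70.0 to 82.2% of genes in lung and 27.4 to 58.0% in skin, so no count model was the main test. The tables were normalised separately, and tests stay within a table.

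Symbols and coordinates came from GENCODE M21 (GRCm38), which matched 11829 lung and 12641 skin genes, with 38 and 20 unmatched. Fits used limma 3.58.1 in R 4.3.3 (two-sided, with a variance trend) after log2 transformation, with a pseudocount equal to 1 ppm of the mean library total added to the signal. A gene needed 1 ppm in as many libraries as the smaller group holds. P-values were Benjamini-Hochberg adjusted over all genes tested, and calls needed an adjusted p below 0.05. The fits were tested on simulated data. The members, gene lists, tests and alternatives were chosen with earlier results of these data known. Besides the members, genes were named by rule: per list and organ up to 4 with the lowest p between cell types, up to 2 per depletion contrast, gate genes, and the genes most alike each member. The values of 1 gene that this rule names are not reported here.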

Additional observations from a re-analysis of the deposited data

Results flagged for a closer look

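The libraries labelled control macrophages 1 and 5 of skin were kept out of the tests above except where labels were restored, and 5 members were higher in both of them than in every other skin macrophage library. The lower of the pair stood at 68.7 for Csf1, 16.5 for Il34, 29.9 for Pdgfc, 297 for Pdgfra and 134 for Pdgfrb. The highest values of the other 5 skin macrophage libraries were 11.9, 7.28, 19.8, 14.5 and 9.16 in the same order. No library stood apart from its group in the 10 sets of 4 depleted skin macrophage values, 1 set per member, that were examined for a single distant value.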

How the results depend on the processing

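Alternatives covered pseudocounts, filters, scaling, variance models, weights, voom, thresholds, leaving out each library, 1 genotype alone, labels as given and a replicate block. In lung 7 members were called between cell types, against 5 in control mice only and 4 in depleted mice only, where fewer samples were used. With the stricter filter of 10 ppm, under which 8503 genes were tested, 5 members were called in lung. Pdgfb and Pdgfrb did not pass that filter in lung and were not tested under it. Leaving out each library gave 6 to 7 in lung and 7 to 8 in skin. No call changed sign. In skin Pdgfb was also called under quantile normalisation (2.26), array weights (1.77) and an adjusted p below 0.10 (2.11), and Pdgfc under array weights (-1.69). No member was called for depletion or its interaction under any alternative run. Counts of all genes moved more, from 0 to 76 in lung macrophages, 0 to 7 in lung fibroblasts, 0 to 63 in skin macrophages, 0 to 87 in skin fibroblasts, 0 to 6 in the lung interaction and 0 to 185 in the skin interaction, and between cell types from 2731 to 5113 in lung and 1120 to 5222 in skin. Csf3r lost its call in lung macrophages without a variance trend (-2.24, adjusted p = 0.414) and in the model of 4 groups (-2.24, adjusted p = 0.180). The causes were not tested.

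With a replicate block 6 members were called between cell types in lung and 6 in skin, where Csf1 of lung (adjusted p = 0.0506) and Il34 of skin (-1.97, adjusted p = 0.0766) were lost, and 0 were for depletion. All genes called under the block were 67 in lung macrophages, 4 in lung fibroblasts and 87 in skin fibroblasts. Deviations of same-numbered libraries correlated at -0.046 to 0.026 in lung and at -0.048 to 0.15 in skin. Between cell types, 4 of 12 lung libraries correlated best with their own number. With so few libraries per group, these values cannot tell whether libraries of the same number come from the same animal. Skin macrophages share 1 number and allow no block, and leaving out control macrophages 3 could not be fitted there or in the interaction. Depth limits the lung values of Csf1, Pdgfa, Pdgfb and Pdgfrb.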
